A study of Homo sapiens with 9 samples.

Results

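Of the 9333 ARID1A peaks that the authors placed at promoters, 4673 (50.1%) shared no base with any ARID1B or ARID2 peak. These ARID1A-alone promoter peaks, 36.4% of all 12852 ARID1A peaks, are described here. They were selected on the deposited promoter class of ARID1A peaks and on the coordinates of the 3 ARID peak lists. Their lack of overlap with ARID1B and ARID2 and their distance to a transcription start site (TSS) are therefore described and were not tested. The deposited distance of these peaks to a TSS ran from 0 to 997 bp. Divergent starts, tested below, depend in part on that distance.

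SWI/SNF complexes use the energy of ATP to slide or evict nucleosomes. ARID1A and ARID1B are alternative DNA-binding subunits of the form called BAF, ARID2 belongs to the form called PBAF, and SNF5 (also named SMARCB1, INI1 or BAF47) is a core subunit of both. At promoters, the complexes are known to affect how open the nucleosome-depleted region around the start of a gene is, and many promoters of this kind are rich in the dinucleotide CpG.

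All libraries came from HepG2, an established line of human liver cancer cells, which received no treatment. ChIP-seq was made with 1 antibody each against ARID1A, ARID1B, ARID2 and SNF5, with 2 replicates per antibody, and there was 1 input library without antibody, which was not used here. The authors merged both replicates before they called peaks, so that each subunit was represented by 1 list, no value below has a replicate error. How deeply each list was sequenced is unknown. The ARID lists came from different antibodies, and a missing peak means only that none was called. No expression data were used, so the identity of the line was not checked against liver markers.

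Further classes served as references. ARID1A promoter peaks that shared at least 1 bp with an ARID1B or ARID2 peak numbered 4660 and are called shared. Promoter peaks of ARID2 alone numbered 4062, and those of ARID1B alone 1142, each without a base in common with either of the other ARID lists. All 3 ARID lists together held 21344 promoter peaks. A region called in several lists is counted there separately for each list, so shares over this total weigh shared regions more. The interval after each share is Wilson's at 95% and covers only the error of counting peaks. Intervals and tests treat peaks as independent, although 528 gene names held 2 ARID1A-alone promoter peaks and 69 held 3 or more. Intervals and p-values may therefore be too small. Peaks are not replicates, so each Fisher exact test compares deposited lists and not conditions.

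Sequences under 8 ARID1A-alone promoter peaks are shown first, because sequence was not used to select the class. Windows rich in CpG, defined below, were more frequent in it than at ARID2-alone and ARID1B-alone promoter peaks. They were more frequent still at shared ARID1A promoter peaks. The 8 stretches lie under peaks at loci of the study or in subunit genes (EPHA2, ARID2), under a very wide peak (RNF44) and under peaks that coincided with SNF5 peaks of very high score (GAPVD1, STAT3, C17orf62, DNA2, GZF1). Coordinates are of hg19, counted from 1, and each stretch is read 5′ to 3′ on the plus strand, limited to at most 300 bp and to bases outside annotated UTRs. Capitals mark matches on either strand to the motif of a promoter element or a factor family. The elements are the GC box, spelled GGGCGG, and the CCAAT box. The ETS family binds CCGGAA, the CREB family the CRE, spelled TGACGTCA here, and MYC and its relatives the E-box, spelled CACGTG. FOXA factors of the liver bind TGTTTAC.
EPHA2 (chr1:16482100-16482399): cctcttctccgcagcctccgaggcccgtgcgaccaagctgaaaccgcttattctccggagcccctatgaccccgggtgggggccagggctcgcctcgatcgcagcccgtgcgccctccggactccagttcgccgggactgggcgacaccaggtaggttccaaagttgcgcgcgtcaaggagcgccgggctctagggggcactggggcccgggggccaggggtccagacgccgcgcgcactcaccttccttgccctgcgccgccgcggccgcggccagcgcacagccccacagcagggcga
RNF44 (chr5:175964432-175964731): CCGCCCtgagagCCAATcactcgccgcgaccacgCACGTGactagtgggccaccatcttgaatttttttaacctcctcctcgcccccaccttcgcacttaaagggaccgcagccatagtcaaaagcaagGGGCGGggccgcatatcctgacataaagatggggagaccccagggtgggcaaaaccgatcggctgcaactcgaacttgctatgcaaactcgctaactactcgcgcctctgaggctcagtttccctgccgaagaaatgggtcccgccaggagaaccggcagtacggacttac
GAPVD1 (chr9:128023798-128024072): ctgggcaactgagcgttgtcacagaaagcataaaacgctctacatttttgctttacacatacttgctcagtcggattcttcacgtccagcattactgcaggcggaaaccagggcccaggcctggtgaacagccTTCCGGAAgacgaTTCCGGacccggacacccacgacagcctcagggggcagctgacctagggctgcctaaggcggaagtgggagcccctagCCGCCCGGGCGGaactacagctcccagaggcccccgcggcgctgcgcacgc
STAT3 (chr17:40540717-40540951): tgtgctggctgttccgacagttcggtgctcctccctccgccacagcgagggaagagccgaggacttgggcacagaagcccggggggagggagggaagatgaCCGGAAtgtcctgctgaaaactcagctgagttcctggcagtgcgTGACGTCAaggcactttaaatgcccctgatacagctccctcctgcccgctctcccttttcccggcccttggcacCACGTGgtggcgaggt
C17orf62 (chr17:80408706-80408808): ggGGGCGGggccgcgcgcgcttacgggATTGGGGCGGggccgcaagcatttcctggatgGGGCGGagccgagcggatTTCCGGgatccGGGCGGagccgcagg
DNA2 (chr10:70231731-70231791): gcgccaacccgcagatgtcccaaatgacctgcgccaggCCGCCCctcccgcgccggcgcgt
GZF1 (chr20:23343538-23343743): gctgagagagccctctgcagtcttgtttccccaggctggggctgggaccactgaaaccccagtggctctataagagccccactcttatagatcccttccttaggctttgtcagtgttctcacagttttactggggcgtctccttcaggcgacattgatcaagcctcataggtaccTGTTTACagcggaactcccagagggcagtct
ARID2 (chr12:46123746-46123856): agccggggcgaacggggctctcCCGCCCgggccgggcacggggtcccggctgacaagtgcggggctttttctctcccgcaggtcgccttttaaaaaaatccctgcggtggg

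By the Gencode annotation, the stretches of GAPVD1, STAT3, C17orf62 and DNA2 lay upstream of the nearest start and those of EPHA2, RNF44, GZF1 and ARID2 downstream, and those of EPHA2, C17orf62 and ARID2 overlapped an exon. Motif content differed among them. The 103 bp of C17orf62 (now CYBC1, needed by the oxidase of phagocytes) held 4 GC boxes, 1 of which overlapped its CCAAT box, and 1 ETS match. GAPVD1, a regulator of endosomal RAB5, showed 3 ETS matches, 2 of which overlapped on opposite strands, and 2 GC boxes in 275 bp. The stretch upstream of STAT3, a transcription factor activated by cytokines, contained 1 CRE, 1 ETS match and 1 E-box in 235 bp, and that of RNF44, a RING-finger gene, 2 GC boxes, 1 CCAAT box and 1 E-box in 300 bp. In EPHA2, a receptor tyrosine kinase for ephrins, none of the 11 motifs searched was found, yet 72.7% of the bases were G or C and the ratio of observed to expected CpG was 0.86. GZF1, a zinc finger gene, had a ratio of 0.20, a GC content of 53.9% and 1 FOXA match, and so stood at the CpG-poor end. Single GC boxes were present in DNA2, which encodes a helicase and nuclease of DNA replication, and in the 111-bp peak in ARID2 itself. A match to these letters is a description and not evidence of a bound factor.

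Over the whole class, 3365 of 4673 windows of 300 bp centred on the peak midpoint were CpG-rich, that is, had a GC content of at least 50% and an observed to expected CpG ratio of at least 0.6. This was 72.0% (interval 70.7 to 73.3), against 69.0% of all promoter peaks in the 3 ARID lists and 46.9% of the 35116 RefSeq promoters of 300 bp. The share was 44.2% (42.7 to 45.7) for ARID2-alone promoter peaks, 27.8 percentage points lower (Fisher exact test, two-sided, with an odds ratio of 3.25, adjusted p = 6.04e-154), and 39.7% (36.9 to 42.5) for ARID1B-alone promoter peaks, 32.3 points lower (Fisher exact test with an odds ratio of 3.91, adjusted p = 3.77e-90). Shared ARID1A promoter peaks were CpG-rich more often, at 82.8% (81.7 to 83.9), a difference of -10.8 points for ARID1A alone minus shared (Fisher exact test with an odds ratio of 0.53, adjusted p = 5.88e-36), which was -5.51 points within 5 strata of peak width and -3.92 points when a peak within 1000 bp of another ARID counted as shared. GC content of the windows had the same median in both ARID1A classes, 66.7%, whereas the median CpG ratio was 0.775 in ARID1A-alone and 0.836 in shared peaks. For ARID2 alone, the medians were 55.3% and 0.618, and for ARID1B alone 56.3% and 0.518. The classes also differed in distance to a TSS, given below. With only peaks at most 500 bp from a TSS, the differences in CpG-rich windows were 22.7 points against ARID2-alone and 30.9 against ARID1B-alone peaks. Against shared peaks the difference was then -8.39 points. These tests do not separate CpG content from that distance.

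Motif shares, described without a test, are given in the order of these classes. How often a short motif occurs depends on base composition, which was not matched. Median GC content was 66.7% in both ARID1A classes, 55.3% for ARID2 alone and 56.3% for ARID1B alone. Whether the motif shares differed beyond this was not tested. A GC box, the site of SP and KLF factors, was present in 61.8% of ARID1A-alone windows, 65.9% of shared windows, 38.3% of ARID2-alone and 36.0% of ARID1B-alone windows, and in 45.0% of RefSeq promoters. For the ETS motif these shares were 21.5%, 25.6%, 15.5%, 11.6% and 17.2%. A TATA box (TATAAA) was rarer at both ARID1A classes (4.09% alone and 4.38% shared) than at ARID2 alone (8.27%), ARID1B alone (8.49%) and RefSeq promoters (11.5%). The NRF1 site (TGCGCATGC), bound by a factor that controls genes of mitochondrial function, was the motif with the widest ratio between the ARID1A classes. It was found in 48 ARID1A-alone windows (1.03%) and 229 shared windows (4.91%), in 0.936% of ARID2-alone and 0.613% of ARID1B-alone windows, and in 1.56% of RefSeq promoters, so that the shared class stood apart from all 3 alone classes. CRE was at 1.65% alone, 2.88% shared, 0.763% for ARID2 alone and 0.350% for ARID1B alone, and YY1 (AAGATGGCG) at 2.25%, 2.79%, 1.23% and 1.14%.

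CCAAT boxes were found in 24.5% of ARID1A-alone, 27.6% of shared, 29.7% of ARID2-alone and 24.4% of ARID1B-alone windows, all below the 34.6% of RefSeq promoters. AP-1 sites (TGANTCA) were at 4.86%, 3.97%, 5.61% and 7.71% in the same order, against 7.71% of RefSeq promoters, and E-boxes at 7.94%, 9.44%, 5.93% and 5.17%, against 7.26%. Sites of the hepatocyte factors were rare in every set. For FOXA the shares were 2.204%, 2.47%, 3.05% and 3.77%, against 3.42% of RefSeq promoters. For HNF4 (CAAAGTCCA) they were 0.342%, 0.408%, 0.689% and 1.58%, against 0.384%, so that ARID1A-alone windows were near the RefSeq share and ARID1B-alone windows above it. RefSeq windows ran from 250 bp before to 50 bp after the start, whereas peak windows were centred on peaks, so these sets of windows were not placed alike.

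The core subunit was examined next. An SNF5 peak overlapped 2730 of the 4673 ARID1A-alone promoter peaks, or 58.4% (57.0 to 59.8), below the 72.8% of all promoter peaks in the 3 ARID lists. Shared ARID1A promoter peaks were overlapped in 88.6% (87.6 to 89.5), a difference of -30.2 points for alone minus shared (Fisher exact test, two-sided, with an odds ratio of 0.18, adjusted p = 1.66e-249), which was -13.6 points when an SNF5 peak within 1000 bp was counted. ARID1A-alone promoter peaks were overlapped more often than ARID2-alone promoter peaks, at 51.1% (49.6 to 52.7), by 7.29 points (Fisher exact test with an odds ratio of 1.34, adjusted p = 1.40e-11). When an SNF5 peak within 1000 bp was counted in place of an overlap, this difference turned to -1.08 points (Fisher exact test, adjusted p = 0.198). Against ARID1B-alone promoter peaks, at 53.9% (51.0 to 56.8), the difference was 4.48 points (Fisher exact test with an odds ratio of 1.20, adjusted p = 0.00619), but within 5 strata of peak width it was 0.205 points (two-sided Mantel-Haenszel test, adjusted p = 0.90).

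**Figure D1:**
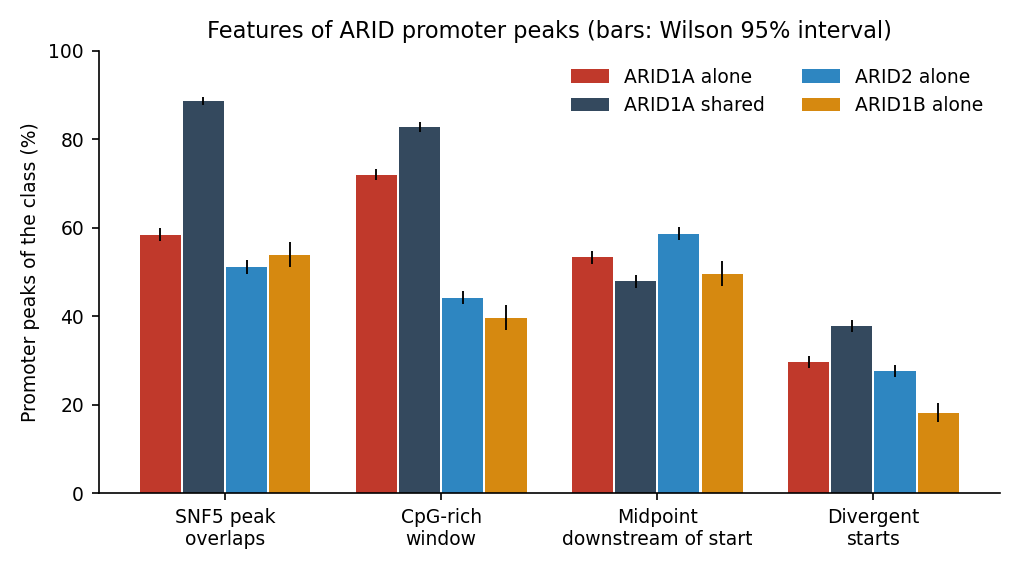
Share of promoter peaks (y axis, percent) overlapped by SNF5, CpG-rich, with the midpoint downstream of the nearest TSS, and with divergent starts, for 4673 ARID1A-alone (red), 4660 shared ARID1A (dark), 4062 ARID2-alone (blue) and 1142 ARID1B-alone (orange) promoter peaks. Lines are Wilson 95% intervals. ARID1A-alone peaks stood below shared peaks for SNF5 (58.4% against 88.6%) and above both other alone classes for CpG-rich windows.

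Width moved with this result. ARID1A-alone promoter peaks were narrow, with a median of 176 bp (quartiles 105 and 269, range 53 to 1206), against 362 bp (205 and 603) for shared peaks, 158 bp for ARID2 alone and 137 bp for ARID1B alone. A wide peak is more likely to touch another one, so width is tied to the way the classes were formed. Among ARID1A promoter peaks of 53 to 118 bp, SNF5 overlapped 45.9% of alone and 73.7% of shared peaks. In the widest stratum the shares were 88.8% of 259 alone peaks and 97.2% of 1605 shared peaks. SNF5 overlap was thus lower in ARID1A-alone than in shared peaks in all 5 strata.

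**Figure D2:**
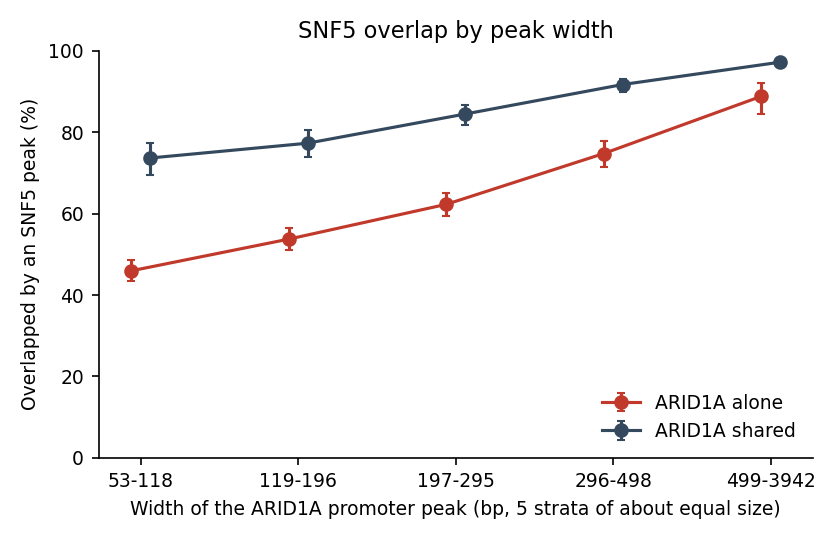
Share of ARID1A promoter peaks overlapped by an SNF5 peak (y axis, percent) in 5 strata of peak width (x axis, bp), for ARID1A-alone (red) and shared (dark) peaks with Wilson 95% intervals. Both shares were larger in wider strata, and the alone peaks lay below the shared peaks in each, from 45.9% against 73.7% to 88.8% against 97.2%.

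Of the 2730 ARID1A-alone promoter peaks with SNF5, 1719 (63.0%) lay wholly inside SNF5 peaks. The authors' peak score of the overlapping SNF5 peak, a whole number from the peak caller, had a median of 21 (quartiles 18 and 25, range 12 to 80) at ARID1A-alone peaks and 24 (20 and 28, range 11 to 124) at shared peaks, against 19 over the SNF5 list. The highest score, 80, was at the 235-bp peak upstream of STAT3 (chr17:40540717-40540951). GZF1 followed with 63, PURB, which encodes a single-stranded DNA-binding protein, with 57, and C17orf62 with 54. WDR74, a gene of ribosome biogenesis, and EIF4A1, a helicase of translation initiation, stood at 47 each. ZNF341 had 46, and GAPVD1, DNA2 and SZRD1 had 45 each. Of these 10 peaks, 5 were within 1000 bp of an ARID1B or ARID2 peak (GZF1, WDR74, EIF4A1, ZNF341 and SZRD1), whereas DNA2 was 87865 bp and PURB 37836 bp from any.

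For the 1943 ARID1A-alone promoter peaks without SNF5 overlap, an SNF5 peak was still within 1000 bp in 1084 (55.8%). In all, 680 of the 4673 peaks (14.6%) had no peak of any other subunit within 1000 bp. A further 1205 (25.8%) overlapped SNF5 and had no ARID1B or ARID2 peak within 1000 bp.

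How far these peaks stood from the other ARIDs varied widely. The distance to the nearest ARID1B or ARID2 peak, counted as 1 bp when the 2 peaks touch, had a median of 984 bp (quartiles 255 and 26831 bp), and 2339 of the 4673 peaks (50.1%) had such a peak within 1000 bp. In 1883 of these 2339 (80.5%) the nearer one was ARID2 and in 451 (19.3%) ARID1B. At the other end, 1311 peaks (28.1%) lay more than 20000 bp and 429 (9.18%) more than 100000 bp from either. A shared ARID1A promoter peak was within 1000 bp of 1016 ARID1A-alone peaks (21.7%). Many of these peaks were therefore separate intervals close to a peak of another ARID.

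At the edge of the rule, 11 ARID1A-alone peaks touched an ARID1B or ARID2 peak without sharing a base and 63 had a distance of at most 10 bp. Among those just inside were the peaks of SDE2 (chr1:226186981-226187065), HIVEP1 (chr6:12009511-12009630), NT5C3 (chr7:33101789-33102625) and BPGM (chr7:134331632-134331987), each touching an ARID2 peak, and of AC025442.3 (chr5:65440315-65440538), touching an ARID1B peak. Among those just outside were ATF3 (chr1:212782096-212782323), SERINC5 (chr5:79551899-79551960), CSNK1G3 (chr5:122847757-122847916), ZNF800 (chr7:127032678-127032748) and TBC1D2 (chr9:101018400-101018452), each with 1 bp in common with another ARID. SNF5 overlapped all 5 of the latter peaks and 3 of the 5 former. These are few of the peaks at the edge, where 87 shared peaks had at most 10 bp in common with another ARID. No difference can be read from them.

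The distance to another ARID went with other features of the ARID1A-alone promoter peaks, given as a description because it belongs to the rule. SNF5 overlapped 72.2% (68.2 to 75.9) of the 518 peaks within 100 bp of another ARID, 61.2% of the 1190 at over 250 and up to 1000 bp, and 50.3% (47.6 to 53.04) of the 1311 beyond 20000 bp. CpG-rich windows took a different course, from 71.8% within 100 bp through a low of 63.0% at over 1000 and up to 5000 bp to 81.8% (79.6 to 83.8) beyond 20000 bp. Divergent starts were least frequent in that same middle range, at 19.96%. Median width stayed between 168.5 and 190.5 bp in all 6 ranges. GC boxes were found in 66.9% of the windows beyond 20000 bp and 59.6% of those within 1000 bp, ETS motifs in 25.1% and 20.4%, and YY1 motifs in 3.36% and 1.62%.

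**Figure D3:**
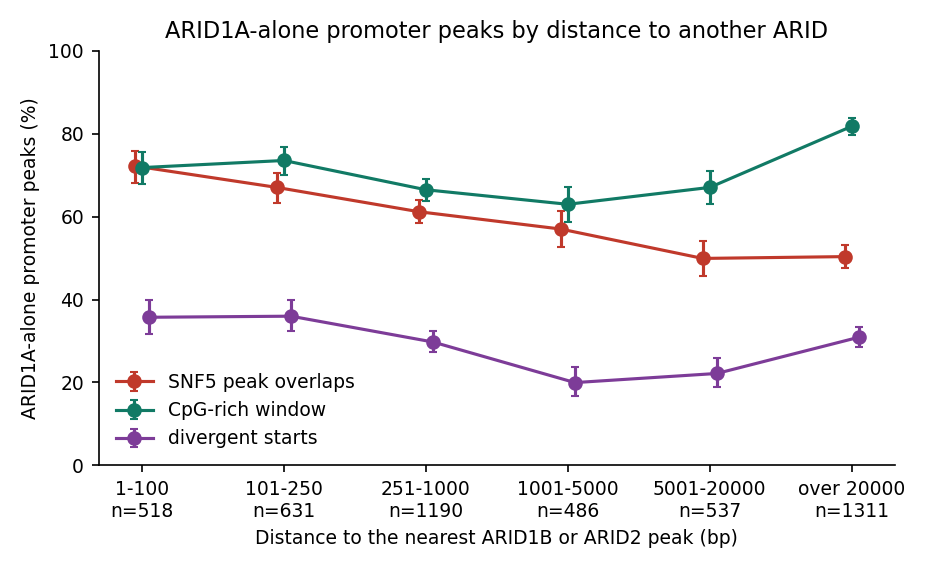
Share of ARID1A-alone promoter peaks (y axis, percent) overlapped by SNF5 (red), with a CpG-rich window (green) and with divergent starts (purple), in 6 ranges of distance to the nearest ARID1B or ARID2 peak (x axis, bp; n below each), with Wilson 95% intervals. SNF5 overlap was 72.2% in the nearest range and 50.3% in the farthest, where CpG-rich windows reached 81.8%.

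The 5 peaks farthest from another ARID all lay on the X chromosome. BRWD3, a bromodomain gene, had a 166-bp peak 2910107 bp from any ARID1B or ARID2 peak. MBTPS2, the protease that activates SREBP factors in the Golgi, had one of 116 bp at 2564186 bp, and NXT2, an mRNA export gene, one of 294 bp at 2167462 bp. None of these 3 overlapped SNF5. The noncoding genes MORF4L2-AS1 (183 bp, 2214398 bp) and FTX (53 bp, 1609655 bp) did, with scores of 18 and 22.

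By chromosome, the share of ARID1A promoter peaks that were ARID1A alone was uneven, which is likewise a description since the rule sets it. On X it was 27 of 28 (96.4%, 82.3 to 99.4). Among chromosomes with at least 100 ARID1A promoter peaks, it ran from 35.6% (32.3 to 39.0) of 792 on chromosome 2, 36.2% of 613 on chromosome 6 and 37.6% of 343 on chromosome 20, through 43.7% on 16, 45.5% on 17 and 45.6% on 14, to 60.0% of 497 on chromosome 11 and 61.3% of 302 on chromosome 8. ARID1B promoter peaks per 100 ARID1A promoter peaks numbered 58.2 on chromosome 2, 51.5 on 6, 44.02 on 20, 41.9 on 16, 37.8 on 17 and 36.8 on 14, against 27.0 on 11, 30.5 on 8 and 14.3 on X. Between these ends, the number did not follow the share alone on every chromosome. It was 36.8 on chromosome 10, with 52.1% alone, and 35.9 on 22, with 56.8% alone. Chromosome 4 had 21.8, fewer than 11 and 8, but a lower share alone, 57.2%. For ARID2 the numbers did not fall steadily as the share rose, with 105 on chromosome 2 and 102 on 6 but 81.7 on 16 and 83.6 on 17, and 110 on chromosome 10. SNF5 overlapped 72.0% of the ARID1A-alone promoter peaks on chromosome 2, 65.8% on 6, 73.6% on 20, 60.6% on 16, 57.3% on 17 and 53.1% on 14, against 55.7% on 11, 57.8% on 8 and 25.9% on X. The copy number of these chromosomes was not analysed here. Without chromosomes 2, 6, 20, 16, 17 and 14, an alternative chosen after seeing the data, the difference in SNF5 overlap between alone and shared peaks was -28.3 points (Fisher exact test, adjusted p = 1.32e-122).

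**Figure D4:**
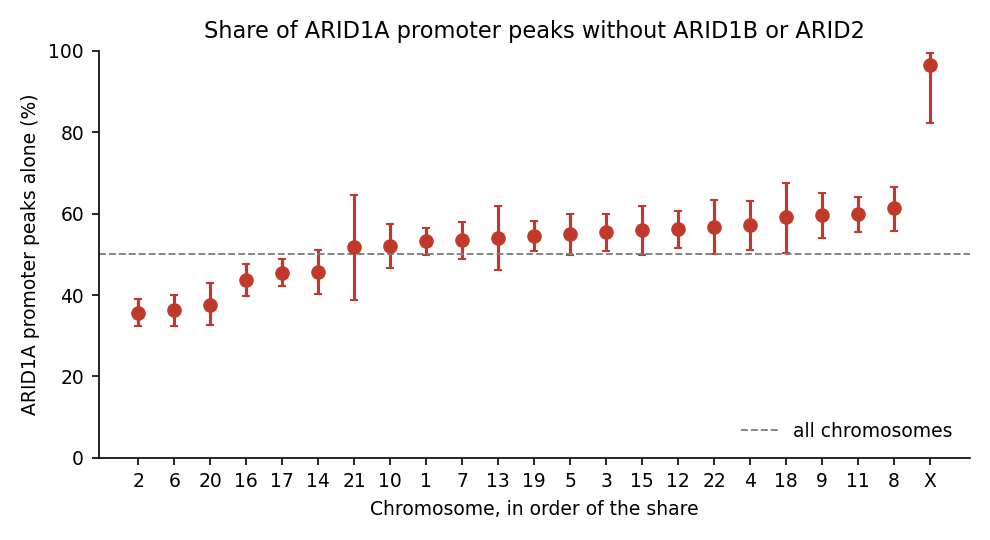
Share of ARID1A promoter peaks that were ARID1A alone (y axis, percent) on each chromosome (x axis, ordered by the share), with Wilson 95% intervals; the dashed line is the share over all chromosomes, 50.1%. Chromosome Y, with 5 promoter peaks, is not shown. Chromosomes 2, 6 and 20 were lowest, between 35.6% and 37.6%, and X was highest at 96.4%.

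The placement of peaks around the TSS was then compared. Midpoints of 42.8% of ARID1A-alone promoter peaks were within 100 bp of a TSS, against 54.3% of shared peaks, 27.9% for ARID2 alone and 25.3% for ARID1B alone. The deposited distance to the TSS had medians of 146, 91, 288 and 279.5 bp in the same order. More than 200 bp downstream lay 23.05% of ARID1A-alone midpoints and 13.97% of shared midpoints, and more than 200 bp upstream 16.8% and 13.2%. The side of the TSS was not part of the rule. The midpoint was downstream in 53.3% (51.9 to 54.8) of ARID1A-alone peaks, against 51.1% of all promoter peaks in the 3 ARID lists and 47.9% (46.4 to 49.3) of shared peaks, a difference of 5.47 points (Fisher exact test, two-sided, with an odds ratio of 1.25, adjusted p = 3.87e-07).

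This difference did not pass the threshold when a peak within 1000 bp of another ARID counted as shared (1.55 points, Fisher exact test, adjusted p = 0.197) or when neighbouring peaks of each list were joined (1.89 points, Fisher exact test, adjusted p = 0.178). ARID2-alone peaks were downstream in 58.7% (57.1 to 60.2), a difference of -5.34 points for ARID1A alone minus ARID2 alone (Fisher exact test with an odds ratio of 0.81, adjusted p = 8.12e-07). With only peaks at most 500 bp from a TSS it was -2.64 points (Fisher exact test, adjusted p = 0.0501). ARID1B-alone peaks were downstream in 49.6% (46.8 to 52.5), a difference of 3.68 points (Fisher exact test with an odds ratio of 1.16, adjusted p = 0.0268) that did not pass the threshold under 6 of the alternatives.

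**Figure D5:**
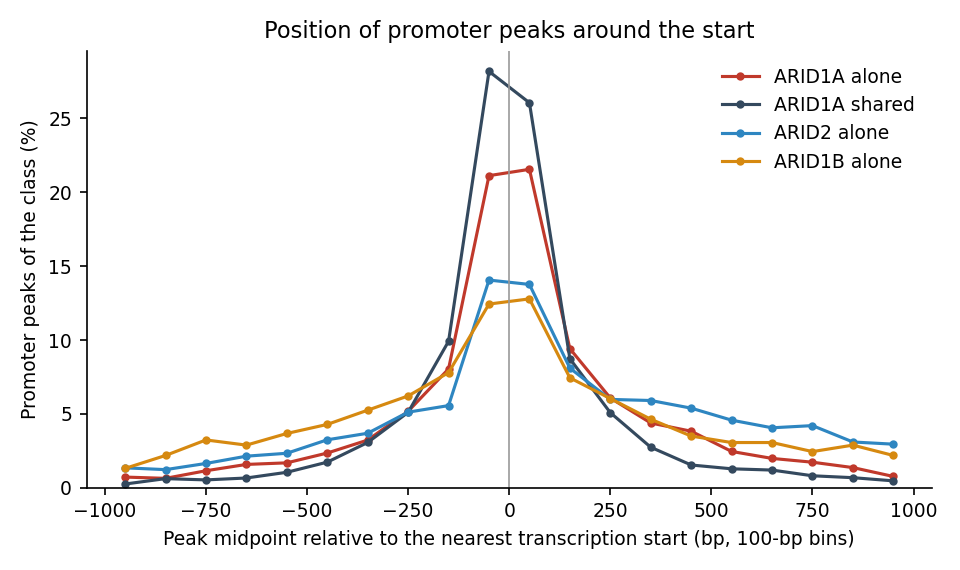
Percentage of the promoter peaks of each class (y axis) whose midpoint fell in each 100-bp bin around the nearest TSS (x axis, bp; negative is upstream). ARID1A-alone peaks (red) had 42.8% of midpoints within 100 bp of a TSS, between the shared peaks (dark, 54.3%) and the ARID2-alone (blue, 27.9%) and ARID1B-alone (orange, 25.3%) peaks, which were spread more widely.

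Divergent promoters, at which 2 different genes start within 1000 bp of the midpoint and point apart, made up 29.7% (28.4 to 31.0) of ARID1A-alone promoter peaks and 32.9% of all promoter peaks in the 3 ARID lists. The share was 37.8% (36.4 to 39.2) in shared peaks, a difference of -8.11 points (Fisher exact test, two-sided, with an odds ratio of 0.69, adjusted p = 3.62e-16), and 18.1% (16 to 20.5) in ARID1B-alone peaks, a difference of 11.6 points (Fisher exact test with an odds ratio of 1.91, adjusted p = 1.10e-15). With starts of protein-coding genes only, the share was 11.5% for ARID1A alone, 16.03% for shared and 6.57% for ARID1B-alone peaks, so that most divergent calls rested on the start of a gene that is not protein-coding, and the differences were -4.52 and 4.95 points (Fisher exact tests, adjusted p = 7.82e-10 and 5.84e-07). Against ARID2 alone, at 27.6% (26.2 to 29.0), the difference of 2.08 points (Fisher exact test with an odds ratio of 1.11, adjusted p = 0.0329) turned to -1.38 points within 5 strata of GC content (two-sided Mantel-Haenszel test, adjusted p = 0.196). Both starts had to lie near the midpoint, so the call depends on distance to a TSS, in which the classes differed. The midpoint was within 200 bp of a TSS in 60.2% of ARID1A-alone, 72.9% of shared, 41.5% of ARID2-alone and 40.5% of ARID1B-alone peaks. With only peaks at most 500 bp from a TSS, the differences were -6.91 points against shared, 0.861 against ARID2-alone and 10.9 against ARID1B-alone peaks. These tests do not separate divergence from that distance.

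Of the deposited chromatin states, the commonest one was tested between the ARID1A classes. The active promoter state covered 67.5% (66.1 to 68.8) of ARID1A-alone and 66.9% (65.5 to 68.2) of shared peaks, against 61.8% of all promoter peaks in the 3 ARID lists. The difference of 0.584 points did not pass the test (two-sided Fisher exact test, p = 0.552), and it was -2.66 points (Fisher exact test, p = 0.0192) when a peak within 1000 bp of another ARID counted as shared and -2.88 points (Fisher exact test, p = 0.00436) when midpoints within 500 bp did. Weak promoter was the state of 12.5% of alone and 11.5% of shared peaks, and the first of the strong enhancer states that of 12.1% and 14.7%. These states were not tested. Poised promoter was the state of 21 alone and 17 shared peaks, and repressed chromatin that of 11 and 15. SNF5 overlapped 59.3% of those in the active promoter state, 52.9% in the weak promoter state and 62.1% in that strong enhancer state.

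The ARID1A-alone promoter peaks carried 3988 gene names in the authors' annotation. Of these, 3391 held 1 such peak, 528 held 2 and 69 held 3 or more. A shared ARID1A promoter peak was also assigned to 891 of these names (22.3%), and an ARID1B or ARID2 promoter peak to 1908 (47.8%). No ARID1B or ARID2 peak of any class was assigned to 1735 names (43.5%). The nearest start belonged to a protein-coding gene for 85.6% of the peaks and to a long noncoding RNA for 11.9%.

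SEPT9, which encodes a cytoskeletal septin with many alternative starts, held the most, 8 peaks between 154 and 495 bp wide, of which 5 overlapped SNF5. SMAD7, the inhibitory SMAD of TGF-beta signalling, held 5, all overlapped by SNF5 with scores of 21 to 23. Of these, 3 lay between 69 and 395 bp from another ARID and the others at 13193 and 13688 bp. APOC3, a plasma apolipoprotein, held 4 peaks between 38 and 1313 bp from an ARID2 peak, and 3 of them overlapped SNF5. BCAR1, a scaffold protein of integrin signalling, and COL9A3, a collagen chain, held 4 each.

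The 10 widest ARID1A-alone promoter peaks measured 909 to 1206 bp, and 9 of them were overlapped by SNF5. They belonged to PPP1R16A (a regulatory subunit of protein phosphatase 1; 1206 bp), PSMD11 (a proteasome subunit; 1148 bp), the kinase gene PDIK1L (1077 bp), the RNA-binding protein gene PTBP3 (1020 bp), RNF44 (1007 bp), the mitochondrial carrier gene SLC25A39 (998 bp), the cytokine gene MIF (969 bp), the noncoding RP11-269F19.2 (948 bp), PTPLA, an enzyme of fatty acid elongation (922 bp), and SEMA4C, a semaphorin (909 bp). RP11-269F19.2 was the exception without SNF5, the nearest SNF5 peak being 31144 bp away. The window was CpG-rich for all but PPP1R16A. PDIK1L stood 121600 bp, PTBP3 45114 bp and PSMD11 38372 bp from any other ARID, and PTPLA 16 bp.

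A selection of loci from the study was looked up, together with the 4 subunit genes. Among them, 3 held an ARID1A-alone promoter peak, namely EPHA2, MYC and ARID2. The selection did not cover every gene that the study tested by qPCR. The EPHA2 peak (chr1:16481973-16482526, 554 bp) was overlapped by SNF5 with a score of 22 and stood 22577 bp from the nearest ARID1B peak and 179330 bp from the nearest ARID2 peak. These are distances to called peaks and do not show that ARID1B and ARID2 were absent from the locus. The MYC peak (chr8:128749035-128749295, 261 bp) also coincided with SNF5 at a score of 22, but an ARID2 peak was 507 bp and an ARID1B peak 668 bp away. The peak in ARID2 itself (chr12:46123746-46123856, 111 bp) was not overlapped by SNF5, whose nearest peak was 393 bp away, and an ARID2 peak lay 496 bp from it.

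Functional groups were described by how many of their genes held an ARID1A-alone promoter peak, beside 3472 of 20136 protein-coding genes of the annotation (17.2%). For shared ARID1A promoter peaks this background was 3495 genes (17.4%). The background includes genes that are silent in this line, and no test of the lists was made. Over all ARID1A-alone promoter peaks, SNF5 overlapped 58.4% and the median width was 176 bp. The counts of SNF5 within each list are to be read against these values. Such counts follow for some lists only, often of few peaks. Among the other lists, SNF5 overlapped 10 of 17 peaks of RNA polymerase II and general factors (58.8%) and 53 of 86 of solute carriers (61.6%). For cytoplasmic ribosomal proteins it was 14 of 29 (48.3%), and for TGF-beta and SMAD genes 15 of 21 (71.4%). Of 33 Wnt and beta-catenin genes, 13 (39.4%) held an ARID1A-alone promoter peak and 7 a shared one. The pathway's feedback inhibitor AXIN2 held peaks of 448 and 362 bp at 17 and 221 bp from another ARID, the coactivator BCL9 one of 368 bp at 360241 bp, and TCF7L2, its DNA-binding factor, one of 365 bp at 183 bp. Of 38 genes of growth factor receptors and RAS-MAPK, 15 (39.5%) held one, among them MAP2K1 (340 bp), IGF1R (323 bp), MAPK3 (293 bp) and FGFR3 (236 bp, under an SNF5 peak of score 36). A shared peak was held by 14 of these 38. SNF5 overlapped 7 of the 21 ARID1A-alone peaks in that group (median width 145 bp) and 11 of the 17 in the Wnt group (191 bp). TGF-beta and SMAD genes held one in 11 of 30, including SKI, SMAD2 and TGFBR3, and a shared one in 16. Eph receptors and ephrins held one in 4 of 22 (EPHA2, EFNA1, EFNA3 and EFNA4; 18.2%), near the background, and a shared one in 3.

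Of 35 cyclins, CDKs and CDK inhibitors, which drive or brake the cell cycle, 13 (37.1%) held an ARID1A-alone promoter peak and 15 a shared one. SNF5 overlapped 6 of the 17 ARID1A-alone peaks (median width 176 bp). CCNF had one of 355 bp and CCND3 one of 351 bp, both with SNF5, the inhibitor CDKN1B one of 302 bp with SNF5, and CDK4 one of 285 bp without. Of 22 p53 targets, 9 held one (FDXR, DDB2 and the death receptor gene TNFRSF10B among them) and 10 a shared one, with SNF5 over 4 of the 11 ARID1A-alone peaks (131 bp). The corresponding counts were 10 of 40 for DNA replication (MCM4, CDT1, GINS2) and 8 of 31 for homologous recombination and Fanconi anaemia (CHEK2, RAD50, FANCA, BARD1), with shared peaks in 11 and 10 genes. SNF5 overlapped 7 of the 11 ARID1A-alone peaks of the former and 9 of the 10 of the latter (151.5 bp).

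In the machinery of transcription, 16 of 39 genes of RNA polymerase II and its general factors (41.0%) held an ARID1A-alone promoter peak, including GTF2F1, TAF5, TAF10 and ERCC2, and 13 a shared one. Mediator genes held one in 7 of 33 (21.2%) and a shared one in 11. SNF5 overlapped 1 of the 7 ARID1A-alone peaks of Mediator genes (211 bp), that of MED13. Polycomb and Trithorax genes held one in 13 of 36 and a shared one in 16, with SNF5 over 12 of the 15 ARID1A-alone peaks (173 bp), for example at WBP7 (794 bp), a histone H3K4 methyltransferase gene, and PHC3 (394 bp). SWI/SNF subunit genes held one in 7 of 26, among them BCL7C, SMARCD2, ACTL6A and PHF10, and a shared one in 10. Hepatocyte transcription factors held one in 7 of 23, among them FOXA3, GATA4, PPARA and TBX3, and a shared one in 8.

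Ribosomal protein and respiratory chain genes held shared peaks more often. Cytoplasmic ribosomal proteins held an ARID1A-alone promoter peak in 26 of 82 genes (31.7%) and a shared one in 39. For mitochondrial ribosomal proteins the counts were 21 of 78 (26.9%) and 28, and for respiratory chain genes 20 of 96 (20.8%) and 34. Wide examples were RPS21 (703 bp), RPL8 (619 bp), MRPS26 (512 bp), USMG5 (866 bp) and ATP5D (719 bp). Proteasome genes held each kind in 16 of 48 genes. Of 35 tRNA synthetase genes, 8 (22.9%) held an ARID1A-alone promoter peak and 7 others a shared one, with 0 genes holding both. Replication-dependent histone genes stood at the far end, with an ARID1A-alone promoter peak in 2 of 60 (HIST2H4A and HIST1H4A, 3.33%) and a shared one in 30. AP-1 and KLF factors held one in 4 of 24 (FOSB, KLF9 and KLF10 among them), or 16.7%, near the background of 17.2%. A shared one was held by 11.

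Among genes of liver function, plasma proteins held an ARID1A-alone promoter peak in 10 of 30 genes and a shared one in 6. The protease inhibitor gene AMBP had one of 362 bp, complement C3 one of 347 bp at 16305 bp from another ARID, and coagulation factor F10 one of 265 bp at 85511 bp, each with SNF5. Cholesterol genes held one in 9 of 27 and a shared one in 10, with SNF5 over 9 of the 11 ARID1A-alone peaks (224 bp). Examples were IDI1 (824 bp) and INSIG2 (347 bp), both within 250 bp of another ARID, and DHCR7 (284 bp), at 4265 bp. Cytochrome P450 enzymes held one in only 3 of 56 genes (CYP2W1, CYP27A1 and CYP21A2, 5.36%) and a shared one in 4, and the reads of CYP21A2 could be confounded with its near-identical pseudogene copy. Solute carriers (70 of 348, 20.1%) and ZNF zinc finger genes (94 of 508, 18.5%) were near the background of 17.2%.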

How the data were processed

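ChIP-seq libraries of HepG2 cells were grouped by the antibody in their titles. Per the study's methods and labels, the authors aligned reads to hg19 with Bowtie2, removed duplicates, merged both replicates of an antibody, called broad peaks with MACS2, joined close peaks and removed blacklisted regions. The role of the input in peak calling is not given in the sources used here. The deposited ARID lists hold coordinates, feature class, nearest gene, distance in bp and chromatin state. Only the SNF5 list holds a peak score, deposited as the authors' peak caller gave it. No counts were used, so depth, replicate error and detection limits are unknown.

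From these, overlaps of at least 1 bp, TSS positions and orientation (Gencode v44 lifted to GRCh37, the assembly of hg19), and GC content, CpG ratio and 11 motifs in 300-bp windows were computed with Python 3.11.15, pandas 2.3.3, scipy 1.17.1 and pysam 0.24.0. The comparison sequences were 35116 RefSeq promoters. Shares were compared by Fisher exact tests, adjusted by the Benjamini-Hochberg method over the 3 comparisons of a measure, with a threshold of 0.05. The test functions were tested on simulated data. Named peaks were those of selected study loci and subunit genes, the 10 widest, and the 10 under SNF5 peaks of highest score. Also named were the 5 farthest from another ARID, the 5 on either side of the rule, and the 5 genes with most peaks. In each of 25 gene lists, up to 4 of the widest were named. The members, lists and rules were chosen with earlier results of these data known. In the alternatives, sharing was defined by a gap of 1000 bp, a reciprocal overlap of 50% or midpoints within 500 bp, peaks were joined, promoter, CpG, TSS and divergence rules were changed, autosomes were used, and classes were compared within strata of width. RNA-seq and public data were not analysed here. One peak that the naming rule selects is not reported here.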

Additional observations from a re-analysis of the deposited data

How the results depend on the processing

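No paired analysis was possible because the authors merged the replicates before calling peaks, and for the same reason no replicate could be left out. Of 155 alternative values for 14 results, 129 kept the direction and the side of the threshold, or stayed within 1.5 times the count. The comparisons within GC strata, those without 6 chromosomes, and the alternatives for position and divergence against ARID1B were chosen after seeing the data. SNF5 overlap against shared peaks and the 3 CpG comparisons kept their direction and passed the test in each alternative run for them, but not their size. Against shared peaks, SNF5 overlap was -13.6 points with SNF5 peaks within 1000 bp, and CpG-rich windows were -3.92 with the 1000-bp gap and -5.51 within width strata. With the reciprocal rule, CpG-rich windows were 18.5 against ARID2 alone and 16.6 against ARID1B alone.

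The count of ARID1A-alone promoter peaks was 2334 when a gap of at most 1000 bp counted as sharing, 7619 with a reciprocal overlap of 50%, and 2961 after joining peaks. Differences below are in percentage points, ARID1A alone minus the other class. SNF5 overlap against ARID2 alone turned to -1.08 with SNF5 peaks within 1000 bp. Against ARID1B alone it turned to -4.38 with the reciprocal rule (Fisher exact test, adjusted p = 1.84e-05), and was 0.205 within width strata and 2.32 within GC strata, neither past the threshold. The downstream share against shared peaks no longer passed with the 1000-bp gap (1.55) or joined peaks (1.89), and against ARID2 alone at most 500 bp from a TSS (-2.64). Against ARID1B alone it no longer passed with the 1000-bp gap (3.83), joined peaks (2.62), the 500-bp limit (3.02), protein-coding starts (2.52), GC strata (2.198) or without the 6 chromosomes (3.69). Divergence against ARID2 alone no longer passed with the reciprocal rule (0.648), the 500-bp limit (0.861), width strata (1.77) or protein-coding starts (0.459), and turned to -1.38 within GC strata. The active promoter state against shared peaks, never past the threshold in its main form, turned to -2.66 with the 1000-bp gap, -2.88 with midpoints within 500 bp, -0.203 with joined peaks, -0.514 within width strata and -2.08 without the 6 chromosomes. The causes were not tested.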
